A study of Mus musculus with 18 samples.

Results

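Undifferentiated mouse embryonic stem cells of the Pax7+/+ genotype were compared with the outgrowths that the same genotype formed after 21 days of differentiation. The comparison took the 3 arrays whose titles give Pax7+/+ at day 0 and the 3 whose titles give Pax7+/+ at day 21, 6 of the 18 arrays of the series. The cells came from an F1 cross of C57Bl6N and 129Sv. At day 0 they grew in KO-DMEM with LIF, the cytokine that holds mouse stem cells undifferentiated. At day 21 they were embryoid body outgrowths, kept since the start of differentiation without LIF and with RA and ITS in the medium. The other groups, also of 3 arrays each, were Pax7+/+ embryoid bodies at day 7 in the same medium without LIF, and Pax7-/- cells, which lack a functional Pax7 gene, at days 0, 7 and 21. The titles call the 3 arrays of a group biological replicates, and the labels do not say whether these were separate cultures or separate clones, so the p-values measure the spread between these samples.

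Each array gives 1 RMA value, in log2, per probe set. A difference of 1 is a 2-fold difference, and every difference below is day 21 minus day 0 unless another is named. The arrays form 2 sets by spread: an array was called wide where the SD over all its probe sets exceeded 1.6 log2, and narrow otherwise. Day 0 replicates 1 and 2 and day 21 replicates 1 and 3 are narrow (SD 1.37 to 1.45), and day 0 replicate 3 and day 21 replicate 2 are wide (1.85 and 1.79). Both groups thus hold 2 narrow arrays and 1 wide array, and the array set was a term of the fit. A limma fit over all 18 arrays gave each difference with its standard error, and genes with an adjusted p under 0.05 (Benjamini-Hochberg, over all 22180) are said to have passed. Values per array are given in the order of replicates 1, 2 and 3, so the wide array is the third at day 0 and the second at day 21. At day 7 the second and the third are wide. For arrays of this kind the number of arrays limits the precision. In RNA of whole cultures, fewer cells of a type and less RNA per cell cannot be told apart.

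Mouse embryonic stem cells keep themselves undifferentiated through a network of transcription factors, among them the POU factor Pou5f1, the homeobox factor Nanog and the HMG box factor Sox2, which act on each other's genes and on their own. When LIF is withdrawn and the cells are grown as floating aggregates, the outer layer becomes extraembryonic endoderm, which deposits a basement membrane of laminin and collagen IV, and the inner cells go on to the germ layers. Visceral endoderm takes up and secretes nutrients and serum proteins, and parietal endoderm makes the thick basement membrane of the yolk sac.

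Of the 10 fixed markers of stem cells, 8 were lower at day 21 and none was higher, and their mean over the list was 7.66 to 8.52 log2 on the day 0 arrays against 5.85 to 5.91 on the day 21 arrays. Of 5 visceral endoderm markers, 3 were higher, and the list mean went from 5.31 to 6.24 at day 0 to 6.89 to 8.56 at day 21. The 3 were Afp, Ttr and Cubn, and Ttr and Cubn did not pass without day 0 replicate 3 or without day 21 replicate 2. In limma's test 0 of 4 skeletal muscle, 0 of 4 heart muscle, 0 of 4 blood and 0 of 3 trophoblast markers passed. Their median differences were 0.30, 0.85, 0.19 and 0.48, in the same order. Of 4 neuron and of 3 endothelium markers, 1 was higher and 1 lower in each list. Of 4 fibroblast markers 1 was higher, and of 3 smooth muscle markers 1 was lower. The cultures labelled as stem cells carried the RNA of their defining markers.

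Across all genes, 3240 of 22180 passed (14.6%), of which 1102 were higher at day 21 (4.97% of the genes tested) and 2138 were lower (9.64%). At least 2-fold differences were found for 902 of the genes that passed (4.07%), 272 higher and 630 lower, and at least 4-fold ones for 62 higher and 74 lower. Genes higher at day 21 made up 34.0% of those that passed. That share depended on the scaling of the arrays: it was 25.5% after median centring and 23.2% after scale normalization, and 39.8% after quantile normalization. The median difference over all genes was 0.03 log2. The array sets bear on the total, since without the set as a term only 29 genes passed, and without day 0 replicate 3 or without day 21 replicate 2, the wide arrays, the higher genes fell to 589 and 555.

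**Figure D1:**
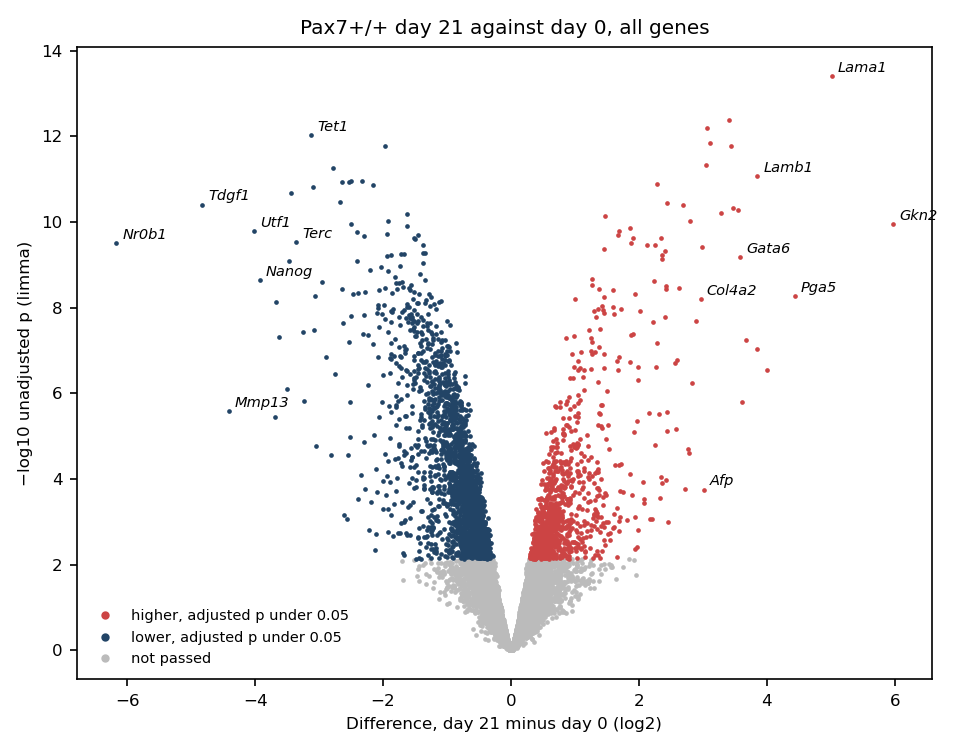
Each point is 1 of 22180 genes, with the difference in log2 (day 21 minus day 0, Pax7+/+) on the horizontal axis and -log10 of the unadjusted p of the limma fit on the vertical axis, red for the 1102 genes higher and blue for the 2138 lower at an adjusted p under 0.05. The stem cell gene Nr0b1 lies farthest to the left at -6.17 and the stomach gene Gkn2 farthest to the right at 5.97.

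The genes of naive pluripotency fell together. Of 29 measured members of the list, 25 were lower at day 21 and 0 were higher, and the median difference was -1.64, against 0.03 over all genes. The largest fall of any named gene was that of Nr0b1, a nuclear receptor of the stem cell network, which read 10.59, 10.43 and 11.12 log2 at day 0 and 4.86, 4.43 and 4.33 at day 21. The arrays of the 2 days lie far apart, and the difference of -6.17 ± 0.44 (SE, n = 3 per group, adjusted p = 1.48e-07) is a 72.2-fold lower signal. Tdgf1, the Nodal co-receptor Cripto, read 9.46, 9.65 and 10.47 at day 0 and 4.78, 5.62 and 4.68 at day 21, a difference of -4.83 ± 0.30. Utf1, a chromatin protein of undifferentiated cells, was lower by -4.01 ± 0.28, and Dppa2, a DNA-binding protein of early embryos, by -3.67 ± 0.33. Nanog read 9.30, 9.12 and 9.97 at day 0, 8.76, 9.74 and 9.84 at day 7, and 5.24, 5.71 and 5.66 at day 21. Its values at day 7 lie within or near the day 0 range, though below day 0 within each array set, and those at day 21 lie below both. Most of the fall of -3.93 ± 0.32 came after day 7 (-0.40 ± 0.33 from day 0 to day 7, adjusted p = 0.618, and -3.52 ± 0.33 from day 7 to day 21, adjusted p = 2.38e-05).

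The promoter of Nanog is shown because it holds a sox-oct composite, the paired motif bound by Sox2 and Pou5f1, whose own values follow. The sequence is that of RefSeq on GRCm38.p6, chr6:122707315-122707614, plus strand, from 250 bases before the start of the transcript to 50 after it, and the capitals mark the sox-oct composite, which was found on the strand opposite to the gene and lies from 151 bases before the start.
Nanog: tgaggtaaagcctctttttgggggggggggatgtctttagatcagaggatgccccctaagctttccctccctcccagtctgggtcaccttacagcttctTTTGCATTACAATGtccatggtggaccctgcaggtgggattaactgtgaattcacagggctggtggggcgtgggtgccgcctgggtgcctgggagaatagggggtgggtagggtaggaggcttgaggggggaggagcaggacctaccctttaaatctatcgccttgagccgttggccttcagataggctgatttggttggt
Searched on both strands in its long form of 14 letters, the composite occurs in the promoters of 1 of 27025 genes, Nanog itself. Its short form of 12 letters occurs in 10 of the 27025, so the count depends on the form searched. A match describes the sequence and is not a measured binding site. Sox2 was lower by -2.06 ± 0.20, with 8.85, 8.73 and 10.08 at day 0 and 6.34, 8.38 and 6.75 at day 21. Pou5f1 was lower by -0.86 ± 0.19 (adjusted p = 0.00453), with 6.92, 6.71 and 6.50 at day 0 and 6.17, 5.36 and 6.03 at day 21. Its arrays did not overlap between the days, which held for 7.46% of all genes. Zfp42, the zinc finger protein Rex1, was lower by -1.90 ± 0.37, and by -1.20 without day 21 replicate 2. Klf4, a LIF-responsive factor outside the naming rule, read 7.87, 7.86 and 9.6 at day 0, 6.44, 8.23 and 8.31 at day 7 and 7.58, 9.35 and 7.95 at day 21. It was low at day 7 and back near its starting range at day 21 (-0.15 ± 0.16, adjusted p = 0.605), one of 4 list members that did not pass.

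**Figure D2:**
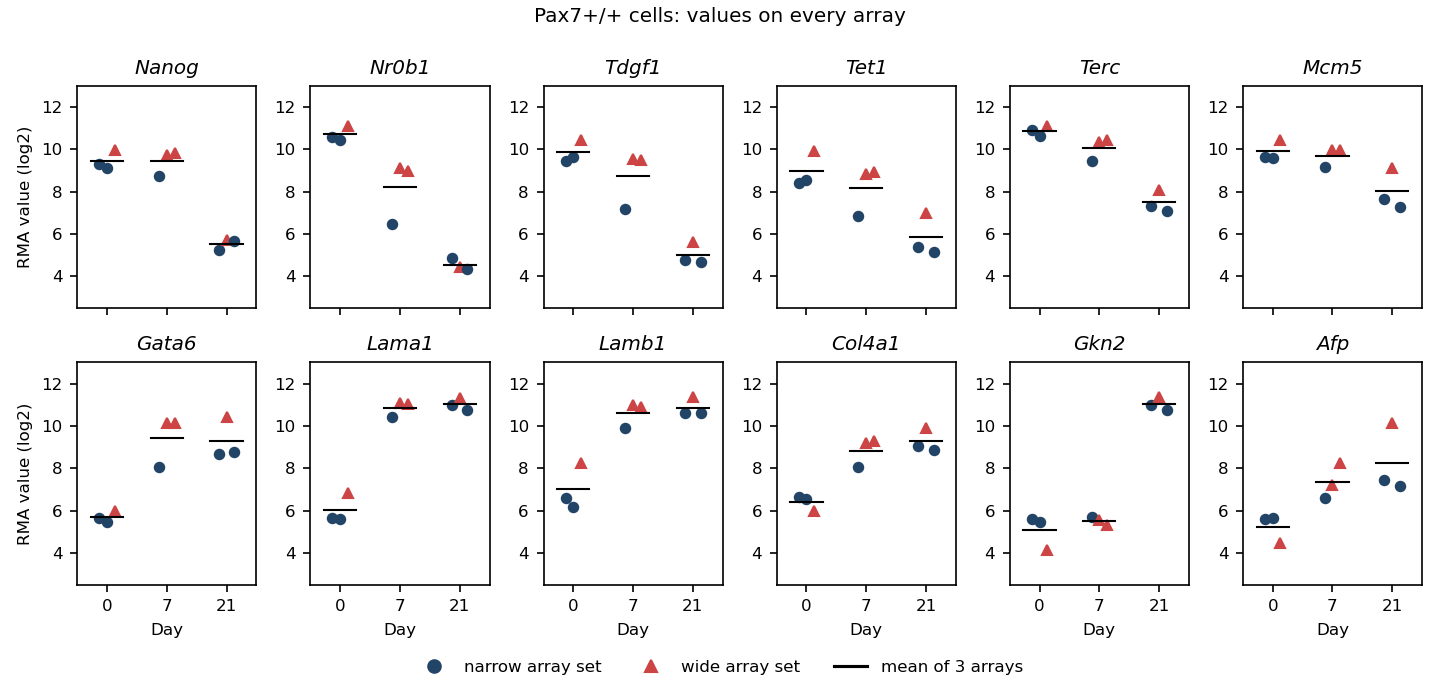
RMA values in log2 (vertical axis) of 12 genes on each of the 9 Pax7+/+ arrays by day (horizontal axis), circles for narrow and triangles for wide arrays, with a bar at the mean of 3 arrays. The mean of Nanog is about as high at day 7 as at day 0, though within each array set its day 7 values lie lower. Nanog then falls by day 21. Lama1 and Gata6 have risen by day 7. Gkn2 lies at 4.15 to 5.67 on all arrays of days 0 and 7 and at 10.75 to 11.35 at day 21.

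Of 10 measured genes that write, read or erase DNA methylation, 6 were lower and 0 higher, with a median of -0.75; at an unadjusted p under 0.05, 7 were lower and 2 higher, and after quantile normalization 1 was higher at an adjusted p under 0.05. The member with the largest positive difference was Tet3, another eraser, named after its value was seen (0.76 ± 0.31, adjusted p = 0.117). Tet1, which oxidises methylated cytosine, read 8.42, 8.56 and 9.92 at day 0 and 5.41, 6.98 and 5.13 at day 21 (-3.13 ± 0.15, adjusted p = 5.19e-09), and its relative Tet2 was lower by -2.41 ± 0.17. Dnmt3l, a cofactor of the de novo methyltransferases, was lower by -2.24 ± 0.28, and Uhrf1, which guides maintenance methylation, by -0.91 ± 0.13. Among the members that fell are thus 2 erasers, a cofactor of the writers and a factor that guides maintenance. In the list of Polycomb and other chromatin genes 8 of 17 were lower and 1 was higher, with a median of -0.54. Jarid2, which recruits the Polycomb complex PRC2, was lower by -2.29 ± 0.16, the PRC2 core subunit Eed by -1.58 ± 0.13, the PRC2-associated Mtf2 by -1.03 ± 0.12, and the PRC1 subunit Cbx7 by -1.04 ± 0.13. Hmga2, an architectural chromatin protein of embryonic cells, was lower by -1.0 ± 0.13. The member that rose was Smarca2, an ATPase of the SWI/SNF remodelling complex, with 5.92, 5.85 and 6.50 at day 0 and 6.73, 8.53 and 6.64 at day 21 (1.21 ± 0.25).

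The machinery of growth and division was lower in the outgrowths. Of 21 DNA replication genes 16 were lower, of 20 mitosis genes 14, and of 17 genes of the nucleolus and ribosome biogenesis 13, with 0 higher in each of the 3 lists and medians of -0.85, -0.87 and -0.97. At an unadjusted p under 0.05 also 0 were higher in each. Mcm5, a subunit of the replicative helicase, read 9.66, 9.6 and 10.46 at day 0 and 7.68, 9.11 and 7.30 at day 21 (-1.88 ± 0.17). Its partner subunits Mcm7, Mcm4 and Mcm2 were lower by -1.45, -1.44 and -1.42, and Rrm2, which makes deoxynucleotides, by -1.47. Kif11, the motor that separates the spindle poles, was lower by -1.42 ± 0.11, and the spindle checkpoint genes Mad2l1, Bub1 and Bub1b by -1.24, -1.23 and -1.18. On the narrow arrays alone Mcm2 read 8.80 and 8.58 at day 0 and 7.10 and 6.92 at day 21, and on the wide arrays 9.80 and 8.90. The direction was the same in both sets, although the levels of the sets overlap across days.

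Among the nucleolar genes, Nop58 and Nop56, core proteins of the small nucleolar ribonucleoproteins that guide ribosomal RNA methylation, were lower by -1.63 ± 0.15 and -1.50 ± 0.11. Nucleolin (Ncl) and the nucleolar GTPase Gnl3, known as nucleostemin, were lower by -1.58 ± 0.19 and -1.47 ± 0.14. Of 15 ribosomal protein genes 9 were lower and 1 was higher, with a median of -0.43. Rplp0, of the ribosomal stalk, was lower by -1.10 ± 0.16 and Rpl10a by -0.96 ± 0.13, while Rps23 was higher by 0.72 ± 0.16. Terc, the RNA that serves as the template of telomerase, was among the 12 largest falls picked by the naming rule, with 10.90, 10.63 and 11.12 at day 0 and 7.34, 8.11 and 7.10 at day 21 (-3.37 ± 0.24, adjusted p = 1.45e-07). Dkc1, the pseudouridine synthase that binds Terc and box H/ACA small nucleolar RNAs, read 7.58, 7.21 and 9.09 at day 0 and 5.55, 6.98 and 5.13 at day 21 (-2.07 ± 0.19). Tert, the protein subunit of telomerase, was looked up after these values were seen and did not pass (-0.47 ± 0.16, adjusted p = 0.0671). Terc and Dkc1 were thus lower on every day 21 array than on every day 0 array. The arrays of the 2 days did not overlap for 7.46% of all genes.

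Further among the 12 largest falls were 2 zinc finger genes, Zfp640 (-3.69 ± 0.53) and Zfp981 (-3.51 ± 0.45), both at 3.12 to 5.28 on the day 21 arrays. Chchd10, a protein of the mitochondrial intermembrane space, was lower by -3.47 ± 0.27. Cth, cystathionine gamma-lyase, which makes cysteine from methionine by transsulfuration, read 8.55, 8.35 and 9.99 at day 0, 5.52, 7.58 and 7.57 at day 7 and 5.03, 6.46 and 5.09 at day 21 (-3.44 ± 0.21). Most of its fall was already present in the embryoid bodies.

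Genes of the basement membrane and parietal endoderm rose: 13 of 16 were higher at day 21 and 0 lower, with a median of 2.18, and the count was 12 or 13 when any 1 of the 6 arrays was left out. Lama1, the alpha chain of the laminin of early basement membranes, read 5.62, 5.62 and 6.82 at day 0, 10.41, 11.08 and 11.04 at day 7 and 10.99, 11.34 and 10.77 at day 21. Every array after day 0 lies above every day 0 array, and the difference of 5.01 ± 0.20 (adjusted p = 8.57e-10) is 32.3-fold. The beta chain Lamb1 read 6.58, 6.18 and 8.27 at day 0 and 10.60, 11.39 and 10.60 at day 21 (3.85 ± 0.22), and the gamma chain Lamc1 rose by 2.36 ± 0.18, so that all 3 chains of laminin-111 were higher. Nid1, nidogen, which links laminin to collagen IV, rose by 2.83 ± 0.35. The 2 collagen IV genes lie head to head on chromosome 8 and moved together: Col4a1 read 6.63, 6.55 and 5.98 at day 0 and 9.06, 9.89 and 8.88 at day 21 (2.89 ± 0.28), and Col4a2 5.85, 5.95 and 5.90 at day 0 and 8.59, 9.81 and 8.19 at day 21 (2.96 ± 0.26). Srgn, the proteoglycan serglycin, rose by 3.40 ± 0.16 and Sparc, a collagen-binding matrix protein, by 1.67 ± 0.12. Lamc1, Nid1 and Sparc are list members outside the naming rule.

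Several single genes with a part in making or remodelling collagen and matrix were also higher. Plod2, which hydroxylates lysine in collagen, read 5.42, 5.39 and 7.83 at day 0 and 9.24, 10.66 and 9.37 at day 21 (3.54 ± 0.23), and Tram2, which takes part in collagen synthesis at the endoplasmic reticulum, 4.91, 5.25 and 6.96 at day 0 and 8.42, 10.17 and 8.92 at day 21 (3.47 ± 0.22). Both were among the 12 largest rises, as was Adamts9, a secreted metalloprotease that cleaves proteoglycans (3.45 ± 0.17). The prolyl hydroxylase subunit P4ha2 and the collagen chaperone Serpinh1, both members of the parietal endoderm list, were higher by 1.99 ± 0.23 and 1.91 ± 0.13. Picked after their values were seen, the related P4ha1, P4hb and P3h2 were higher by 2.63 ± 0.22, 1.94 ± 0.17 and 2.35 ± 0.45. No list fixed for this theme was counted. On all 5, each day 21 array was above each day 0 array, and the arrays of the 2 days did not overlap for 7.46% of all genes. Since P4ha1, P4hb and P3h2 were picked by their values, the 5 are no test of the theme.

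Part of the endoderm genes rose. In the list of visceral endoderm and liver, 11 of 31 were higher and 1 lower, with a median of 0.84. The 11 became 8 without day 0 replicate 3 and 7 without day 21 replicate 2. Gata6, the zinc finger factor that starts the extraembryonic endoderm programme, read 5.67, 5.45 and 5.96 at day 0, 8.05, 10.12 and 10.15 at day 7 and 8.67, 10.42 and 8.76 at day 21 (3.59 ± 0.27), and its relative Gata4 rose by 1.85 ± 0.35. Dab2, an endocytic adaptor of visceral endoderm, rose by 2.43 ± 0.15. Afp, alpha-fetoprotein, read 5.59, 5.66 and 4.48 at day 0 and 7.43, 10.15 and 7.18 at day 21 (3.01 ± 0.62, adjusted p = 0.00293). All 3 day 21 arrays were above all day 0 arrays, but the difference was 1.68 in the narrow set and 5.67 in the wide set. Rbp4, the plasma carrier of retinol, was similar, with 2.34 ± 0.50 in the fit, 1.23 in the narrow and 4.55 in the wide set. Cubn, the endocytic receptor cubilin, read 5.05, 5.09 and 5.99 at day 0, 9.42, 10.79 and 10.81 at day 7 and 5.69, 9.10 and 5.74 at day 21. It peaked in the embryoid bodies, and its net difference of 1.47 ± 0.43 did not pass without day 0 replicate 3 (1.04, adjusted p = 0.176) or day 21 replicate 2 (0.91, adjusted p = 0.198). The member that fell was Apoe, apolipoprotein E (-0.77 ± 0.15).

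Of 17 genes of simple epithelium 5 were higher and 3 lower, and 3 were higher without day 21 replicate 2. The partner keratins Krt18 and Krt8 rose by 2.98 ± 0.22 and 2.32 ± 0.33. Aqp8, a water channel, read 5.21, 5.21 and 4.58 at day 0 and 8.09, 9.56 and 8.35 at day 21 (3.67 ± 0.38). Claudin 6 (Cldn6) rose by 0.91 ± 0.20, while Cldn4, the adhesion molecule Epcam and E-cadherin (Cdh1), all present in stem cells, fell by -0.93 ± 0.16, -0.82 ± 0.20 and -1.04 ± 0.19. Junction genes thus appear among both the members that rose and those that fell, and 9 of the 17 did not pass.

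**Figure D3:**
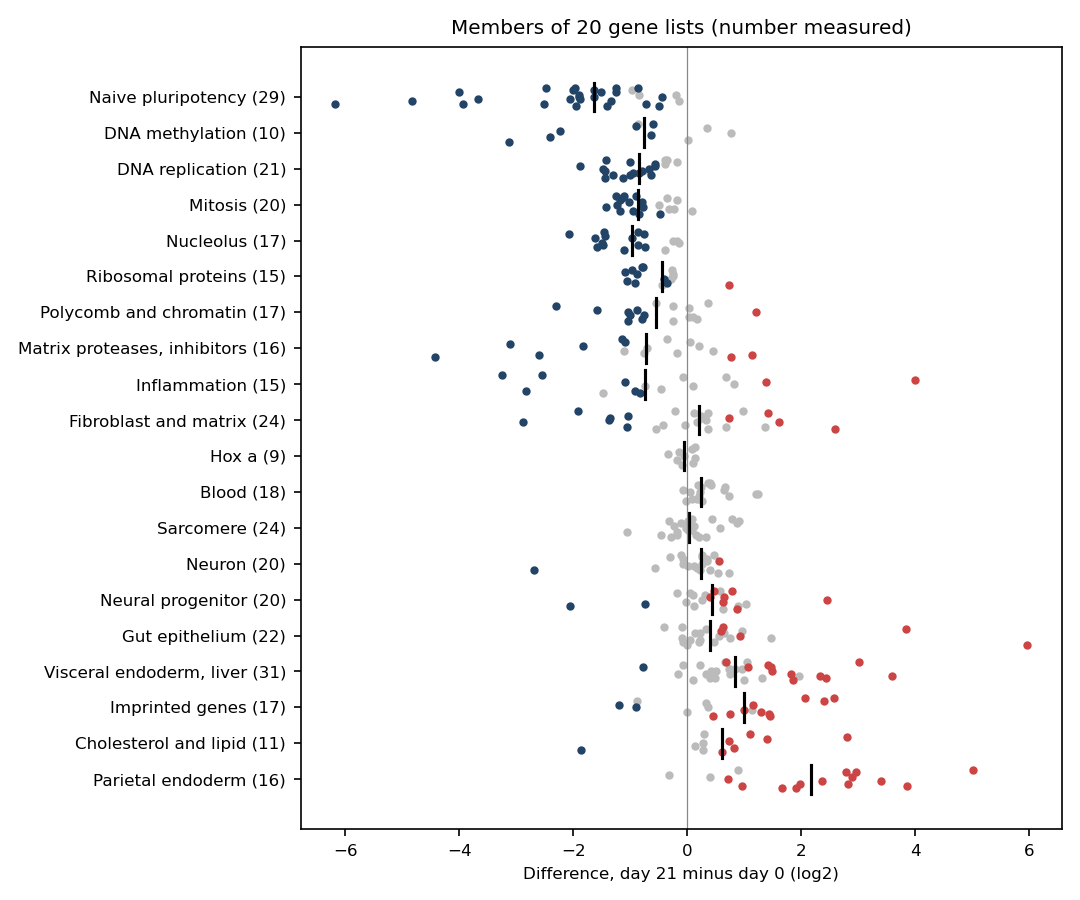
Differences in log2 (horizontal axis, day 21 minus day 0) of the measured members of 20 gene lists, 1 point per gene, red where higher and blue where lower at an adjusted p under 0.05 and grey where not passed, with a black bar at the median of the list. Naive pluripotency has its median at -1.64 and parietal endoderm at 2.18, while the 9 Hoxa genes lie between -0.33 and 0.14.

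A small group of stomach genes was high at day 21. Gkn2, which encodes gastrokine 2, a secreted protein of the stomach surface, had the largest rise of any named gene, with 5.59, 5.46 and 4.15 at day 0, 5.67, 5.55 and 5.32 at day 7 and 11, 11.35 and 10.75 at day 21. The day 21 arrays stand apart from all 6 earlier ones, and the difference was 5.97 ± 0.40 (adjusted p = 8.10e-08), or 62.6-fold. Its neighbour Gkn1 read 5.90, 5.71 and 4.62 at day 0, 5.80, 4.67 and 4.41 at day 7 and 9.0, 9.88 and 8.88 at day 21 (3.84 ± 0.41). From day 0 to day 7 neither passed (Gkn2 0.41, adjusted p = 0.704, and Gkn1 -0.33, adjusted p = 0.791), and from day 7 to day 21 both did (5.55 and 4.18, in the same order). Pga5, the digestive protease precursor pepsinogen, read 5.24, 5.04 and 4.55 at day 0, 6.37, 8.70 and 8.56 at day 7 and 9.04, 10.19 and 8.90 at day 21 (4.44 ± 0.39). It was already between the 2 levels in the embryoid bodies. Chil1, a secreted chitinase-like glycoprotein of several tissues, rose by 4.0 ± 0.47.

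The promoters of Gkn1 and Gkn2 are shown because the genes lie side by side on chromosome 6 and moved together between the same days. They are RefSeq sequences on GRCm38.p6, Gkn1 at chr6:87350866-87351165 on the minus strand and Gkn2 at chr6:87373115-87373414 on the plus strand, and the capitals mark AGATAA, a motif bound by GATA factors, which occurs on the gene's own strand from 82 and 218 bases before the start.
Gkn1: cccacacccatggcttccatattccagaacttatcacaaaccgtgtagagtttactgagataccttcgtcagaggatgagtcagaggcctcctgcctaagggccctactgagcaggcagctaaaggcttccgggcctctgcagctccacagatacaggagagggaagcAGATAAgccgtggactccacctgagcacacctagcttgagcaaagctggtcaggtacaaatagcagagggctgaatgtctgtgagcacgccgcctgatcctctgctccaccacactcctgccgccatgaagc
Gkn2: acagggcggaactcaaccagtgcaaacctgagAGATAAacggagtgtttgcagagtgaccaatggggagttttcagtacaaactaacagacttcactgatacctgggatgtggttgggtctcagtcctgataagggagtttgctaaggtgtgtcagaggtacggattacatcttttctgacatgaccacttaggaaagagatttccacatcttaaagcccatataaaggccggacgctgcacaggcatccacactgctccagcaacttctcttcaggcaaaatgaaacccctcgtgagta
The motif is common: 12.7% of all 27025 genes with a promoter sequence hold it on either strand, and 11.2% of the 16990 measured ones. Of the genes with such a sequence, 9.71% of the 206 at least 2-fold higher and 8.52% of the 481 at least 2-fold lower hold it. The overlapping form GATAAG is held by 7.75% of the measured genes, 12.1% of the 206 and 8.32% of the 481. Of the other members of the gut list few moved. In all 5 of 22 were higher and 0 lower, with a median of 0.40, and 3 were higher without day 0 replicate 3 or without day 21 replicate 2, and 8 after quantile normalization. Of the trefoil peptides of gastric mucus, Tff1 was higher by 0.93 ± 0.24 and Tff2 by 0.59 ± 0.15, both small beside the gastrokines. Tff1 did not pass without day 0 replicate 3 (0.83, adjusted p = 0.0776) or day 21 replicate 2 (0.72, adjusted p = 0.107), and Tff2 was 0.39 without day 0 replicate 2.

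More imprinted genes rose than fell. Of 17 imprinted genes 10 were higher and 2 lower, with a median of 0.99. Igf2, a fetal growth factor expressed from the paternal allele, read 6.18, 6.96 and 6.23 at day 0, 8.83, 9.17 and 9.18 at day 7 and 8.55, 9.62 and 8.91 at day 21 (2.57 ± 0.29). Its rise was complete in the embryoid bodies. Igf2r, the maternally expressed receptor that clears the factor, was higher by 0.76 ± 0.18 but did not pass without day 21 replicate 2 (0.55, adjusted p = 0.0771). The paternally expressed Peg3, Dlk1, Peg10 and Plagl1 rose by 2.40 ± 0.18, 2.07 ± 0.45, 1.45 ± 0.13 and 1.44 ± 0.31. Grb10, an inhibitor of insulin receptor signalling, fell by -1.20 ± 0.29. Of the 11 genes of the insulin-like growth factor system 4 were higher, 1 was lower and 6 did not pass. Igfbp5, a secreted binding protein, read 5.69, 5.60 and 5.58 at day 0, 5.71, 7.39 and 7.15 at day 7 and 8.67, 10.24 and 8.83 at day 21 (3.62 ± 0.49), and Igfbp7 fell by -2.15 ± 0.23. These binding proteins therefore changed in opposite directions and at different times, Igfbp5 mostly after day 7 and Igfbp7 before it (-3.05 ± 0.23 from day 0 to day 7).

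A group of genes of connective tissue and of inflammation was high at day 0 and low afterwards. Of 16 matrix proteases and inhibitors 6 were lower and 2 higher, and of 15 genes of inflammation 6 were lower and 2 higher. Without day 0 replicate 3 or without day 21 replicate 2 the 6 became 3 in each list. Mmp13, a collagenase, read 8.07, 7.42 and 9.83 at day 0, 4.23, 4.08 and 3.93 at day 7 and 4.13, 3.55 and 4.39 at day 21 (-4.42 ± 0.62, adjusted p = 0.000105). Its fall was complete at day 7. Timp1, an inhibitor of such proteases, fell by -3.10 ± 0.18 and Timp2 by -1.14 ± 0.20, while Timp3 rose by 1.14 ± 0.20. The stromelysin Mmp3 was lower by -2.61 ± 0.62 but did not pass without day 0 replicate 3 (-1.78, adjusted p = 0.0619) or day 21 replicate 2 (-2.24, adjusted p = 0.0537). Ptgs2, the inducible cyclooxygenase, read 9.47, 9.22 and 10.53 at day 0 and 5.27, 8.14 and 6.06 at day 21 (-3.25 ± 0.33), and the monocyte chemokines Ccl7 and Ccl2 fell by -2.82 ± 0.48 and -2.55 ± 0.44. Ccl2 was lowest at day 7, at 6.01, 5.4 and 5.16, and had risen again by day 21 to 6.84, 8.48 and 7.32. In the opposite direction Chil1, given above with the stomach genes, is a member of the inflammation list and its largest rise (4.0). Serping1, the complement inhibitor, also rose (1.38 ± 0.20).

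In the list of fibroblasts and fibrillar matrix 6 of 24 were lower and 4 higher, with a median of 0.21. The 4 became 2 without day 0 replicate 1 or without day 0 replicate 3, and 1 without day 21 replicate 2. Bgn, the small proteoglycan biglycan, read 10.89, 10.76 and 11.36 at day 0 and 7.23, 9.29 and 7.82 at day 21 (-2.89 ± 0.32). The surface glycoprotein Thy1 and the mesenchymal homeobox factor Prrx1 each fell by -1.36, and Lox, which cross-links collagen, by -1.92 ± 0.44, with an adjusted p = 0.0502 without day 0 replicate 3. Grem1, a secreted BMP antagonist of mesenchyme, fell by -3.23 ± 0.43, from 8.73, 8.35 and 9.96 at day 0 to 6.19, 5.32 and 5.84 at day 21. In the opposite direction Pdgfra, a receptor of mesenchyme and of primitive endoderm, rose by 2.59 ± 0.29, and the fibrillar collagen gene Col3a1 by 1.61 ± 0.38, which did not pass without day 0 replicate 3 (1.33, adjusted p = 0.0572) or day 21 replicate 2 (1.15, adjusted p = 0.0619). The 24 genes averaged 6.51 to 7.17 on the day 0 arrays and 6.34 to 7.37 on the day 21 arrays. Of the 4 fixed fibroblast markers Pdgfra alone passed, and these markers averaged 6.56 to 8.0 at day 0 and 7.16 to 9.35 at day 21. The part of other cells in the day 0 levels was not tested. Interferon and MHC genes were lower for 5 of 17 and higher for 0 (also 0 at an unadjusted p under 0.05), among them Ifitm3 (-1.99 ± 0.18) and Usp18 (-1.52 ± 0.31), and 3 were lower without day 21 replicate 2.

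Metabolic genes moved in both directions. In the list of glycolysis and hypoxia 5 of 16 were higher and 4 lower, with a median of 0.16, and 2 were lower after quantile normalization. Epas1, the hypoxia-inducible factor HIF-2 alpha, read 5.98, 6.12 and 7.56 at day 0, 7.57, 9.55 and 9.36 at day 7 and 9.14, 10.42 and 9.22 at day 21 (3.04 ± 0.16, adjusted p = 1.27e-08). Egln3, a prolyl hydroxylase that marks such factors for degradation, rose by 2.44 ± 0.37, and the hypoxia-responsive Ndrg1 by 1.46 ± 0.17. The glucose transporters parted: Slc2a1 rose by 0.93 ± 0.19 and Slc2a3 fell by -0.96 ± 0.17. Of 11 genes of cholesterol and lipid synthesis 6 were higher and 1 lower. Insig1, which retains the sterol sensor in the endoplasmic reticulum, read 6.22, 6.25 and 7.81 at day 0 and 8.89, 10.59 and 9.21 at day 21 (2.80 ± 0.19). The desaturase Scd1, the sterol pathway enzyme Hmgcs1 and the sterol-responsive factor Srebf2 rose by 1.40 ± 0.27, 1.10 ± 0.19 and 0.81 ± 0.13. The fatty acid elongase Elovl6 was the member that fell (-1.87 ± 0.21). Ctsh, a lysosomal cysteine protease, rose by 2.25 ± 0.37, in a list of 17 lysosomal genes with 4 higher and 3 lower; 2 were higher without day 0 replicate 3 or day 21 replicate 3, and 1 was lower without day 0 replicate 1 or day 21 replicate 1.

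Of 16 immediate early and stress genes 4 were higher and 5 lower, and 3 were lower without day 0 replicate 1, day 0 replicate 3 or any 1 of the day 21 replicates, and 7 were higher after quantile normalization. The AP-1 family genes Atf3, Jun and Jund were higher by 1.59 ± 0.14, 1.39 ± 0.20 and 0.60 ± 0.11. Egr1, an early growth response factor, read 7.12, 7.16 and 8.45 at day 0, 5.66, 6.93 and 7.32 at day 7 and 7.97, 9.22 and 8.10 at day 21, so that it first fell and then rose past its starting level (0.85 ± 0.13). Ier3 and the ERK phosphatase Dusp6 were lower by -1.04 ± 0.14 and -0.95 ± 0.14. Among genes of p53 and cell cycle braking 2 of 16 were higher and 5 lower, and without day 0 replicate 2 or day 21 replicate 2 3 were lower, and without day 0 replicate 3 or day 21 replicate 2, 1 was higher; after median centring 8 were lower. Btg2, an antiproliferative gene, read 6.25, 5.67 and 8.19 at day 0 and 8.42, 9.90 and 8.55 at day 21 (2.26 ± 0.16), and Mdm2, the ubiquitin ligase of p53, fell by -1.07 ± 0.16.

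Genes of the FGF and ERK pathway fell more often than they rose, as did all genes (9.64% lower and 4.97% higher). Of 21, 7 were lower and 2 higher, and 1 was higher without day 0 replicate 3 or without day 21 replicate 2. Etv5, an ERK-dependent transcription factor, read 7.04, 6.97 and 9.30 at day 0 and 5.44, 6.99 and 5.32 at day 21 (-1.85 ± 0.17), and the feedback inhibitor Spry2 was lower by -0.97 ± 0.13. Fgf4, the growth factor made by stem cells, was lower by -1.88 ± 0.45; without day 0 replicate 3 it did not pass (-1.45, adjusted p = 0.0634), and without day 21 replicate 2 it was -1.10. The receptor Fgfr3 rose by 1.53 ± 0.26. Among 21 BMP and TGF-beta genes 5 were lower and 2 higher, but single arrays and the scaling move these counts: 2 were lower without day 0 replicate 3 and 3 without any 1 day 21 replicate, and 5 were higher without day 0 replicate 2, 4 without day 21 replicate 1 and 1 without day 21 replicate 2. After quantile normalization 7 were higher. Id2, a BMP target that inhibits helix-loop-helix factors, rose by 1.59 ± 0.15, while the inhibitory Smad7 fell by -1.01 ± 0.17. In the Wnt list 0 of 21 were higher and 1 was lower, with 7 and 1 at an unadjusted p under 0.05, and 2 were higher without day 0 replicate 2 and 0 lower without day 0 replicate 3, and 3 were higher after quantile normalization.

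Among lists of later tissues, the Hox, sarcomere and blood lists gave 0 genes that passed, and the cardiac, myogenic and smooth muscle lists a few. Over all genes 4.97% passed as higher and 9.64% as lower. The 36 Hox genes, ordered regulators of the body axis that retinoic acid can induce, gave 0 that passed in limma's test, 2 at an unadjusted p under 0.05, and differences from -0.95 to 0.36 with a median of 0.01; 2 were lower without day 0 replicate 2 or after quantile normalization. From day 0 to day 7, 4 of the 36 passed, against 5.69% of all genes. The medians of that step were 0.42, 0.50, 0.30 and -0.05 for the Hox a, b, c and d lists. Of 24 sarcomere genes and 18 genes of blood and macrophages 0 passed, with 4 and 5 at an unadjusted p under 0.05; without day 21 replicate 1, 5 of the blood genes and without day 21 replicate 3, 3 of them were higher. After quantile normalization 3 sarcomere genes were higher and 1 lower, and 2 blood genes were higher. Myod1, the master regulator of skeletal muscle, read 6.07, 6.07 and 4.39 at day 0 and 6.52, 4.66 and 6.59 at day 21 (0.42 ± 0.14, adjusted p = 0.0562). Pax7 itself, a regulator of muscle stem cells and of neural crest, read 6.06, 6.22 and 4.79 at day 0 and 6.19, 5.52 and 5.61 at day 21, with overlapping arrays (0.08 ± 0.23, adjusted p = 0.867). In the cardiac list 2 of 22 were higher, the endoderm and heart factor Gata4 and Myl3, a ventricular myosin light chain (1.89 ± 0.40). At an unadjusted p under 0.05, 12 of the 22 cardiac genes were higher, against 12% of all genes. The cardiac list had 21 of 22 positive differences and a median of 0.46. In it 4 were higher without day 21 replicate 1 or after quantile normalization, and 15 on the wide arrays alone. Of 16 myogenic regulators the MADS box factors Mef2d (0.92 ± 0.11) and Mef2a (0.38 ± 0.12) rose. In the smooth muscle list 1 of 15 was higher and 2 were lower, with a median of 0.17: the tropomyosin gene Tpm1 rose by 0.50 ± 0.13, and the actin-binding proteins Tagln and Cnn1 fell by -0.85 ± 0.18 and -0.64 ± 0.16. The myogenic list had 1 higher without any 1 day 0 replicate or without day 21 replicate 3, and the smooth muscle list had 0 higher without day 0 replicate 2, day 0 replicate 3 or day 21 replicate 1 or after scale normalization, and 1 lower without day 0 replicate 3.

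Neural genes gave few firm calls. In the list of neural progenitors 7 of 20 were higher and 2 lower, but 0 were higher without day 0 replicate 3 or without day 21 replicate 2, and 3 without day 21 replicate 3 or after scale normalization, and 4 after median centring. Fabp7, a fatty acid binding protein of radial glia, read 5.74, 5.74 and 5.10 at day 0, 7.99, 10.08 and 9.87 at day 7 and 7.07, 9.55 and 7.32 at day 21. The difference of 2.46 ± 0.61 did not pass without day 0 replicate 3 (1.69, adjusted p = 0.0854) or day 21 replicate 2 (2.02, adjusted p = 0.0748). The 2 that were lower were Sox2, described above, and the intermediate filament gene Vim (-0.75 ± 0.14). In the neuron list 1 of 20 was higher and 1 lower, with 14 positive differences and a median of 0.24. Map2, a microtubule protein of dendrites, was higher by 0.56 ± 0.17 (adjusted p = 0.0365), and 0 of the list were higher without day 0 replicate 1, day 0 replicate 3 or day 21 replicate 2 or after scale normalization, and 2 were lower without day 0 replicate 2 or day 21 replicate 3 or after either centring or scaling. Stmn2, a microtubule regulator of neurons, fell from 8.07, 7.99 and 9.84 to 5.58, 6.87 and 5.39 (-2.68 ± 0.17). Tubb3, the neuronal beta tubulin, had overlapping arrays and a difference of -0.11 ± 0.16 (adjusted p = 0.725).

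Of 15 endothelial genes 5 were higher and 2 lower; 2 were higher without day 0 replicate 3 and 3 without day 21 replicate 2, and 1 was lower without day 0 replicate 1, day 0 replicate 3 or day 21 replicate 2. Sox17, a factor of endoderm and endothelium, rose by 1.49 ± 0.31 and the VEGF receptor Flt1 by 1.38 ± 0.28. The vascular cadherin Cdh5 was higher by 2.18 ± 0.53 but did not pass without day 0 replicate 3 (1.41, adjusted p = 0.0685) or day 21 replicate 2 (1.61, adjusted p = 0.0757). Pecam1, an adhesion molecule of endothelium that mouse stem cells also carry, fell by -1.24 ± 0.25, from 6.29, 6.26 and 7.71 to 5.39, 5.59 and 5.56. Of 19 genes of retinoic acid handling 3 were higher and 1 lower, and 1 was higher and 0 lower without day 0 replicate 3 or without day 21 replicate 2. Stra6, the retinol uptake receptor, peaked at day 7 (6.93, 7.56 and 7.99, against 5.67, 5.47 and 4.55 at day 0) and was higher by 1.29 ± 0.33 at day 21, which did not pass without day 0 replicate 3 (0.82, adjusted p = 0.0942) or day 21 replicate 2 (1.04, adjusted p = 0.0869).

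MicroRNA genes were read by probe sets of the array, which do not separate a mature microRNA from its precursor. The sequences below are the mature forms from RefSeq on GRCm38.p6, with the seed, bases 2 to 8 from the 5′ end, in capitals; they are shown to group the genes of the miR-17-92 cluster on chromosome 14 and Mir290a, of the stem cell cluster on chromosome 7, by the seed that selects their targets.
mmu-miR-18a-5p: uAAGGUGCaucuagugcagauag
mmu-miR-17-5p: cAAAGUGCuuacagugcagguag
mmu-miR-20a-5p: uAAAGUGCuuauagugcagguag
mmu-miR-19a-3p: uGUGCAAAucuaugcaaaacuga
mmu-miR-290a-3p: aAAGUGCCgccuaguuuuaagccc
The forms 17-5p and 20a-5p share the seed AAAGUGC, 18a-5p has AAGGUGC, 19a-3p has GUGCAAA and 290a-3p has AAGUGCC. Mir18 read 4.97, 4.99 and 6.28 at day 0 and 4.19, 4.65 and 4.08 at day 21 (-1.11 ± 0.17, adjusted p = 0.000221), with no overlap. Mir19a was lower by -0.92 ± 0.28 but did not pass without day 0 replicate 3 (-0.49, adjusted p = 0.243) or day 21 replicate 2 (-0.53, adjusted p = 0.25). Mir17 and Mir20a differed by -0.47 and -0.77 and did not pass (adjusted p = 0.247 and 0.0876). Mir290a, the one gene of its cluster with a probe set of its own, read 4.23, 4.69 and 6.33 at day 0 and 3.73, 3.13 and 3.86 at day 21 (-1.51 ± 0.50, adjusted p = 0.0524). Of 5 genes of the Mir302 cluster and 12 let-7 genes 0 passed (0 and 2 at an unadjusted p under 0.05), with median values of 3.10 and 3.46 at day 0.

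A second group of microRNA genes was noticed after the values were seen. It lies within the span of Sfmbt2, a Polycomb group gene of extraembryonic tissue, on chromosome 2 (GRCm38.p6, chr2:10370440-10595253). Sfmbt2 read 4.62, 4.59 and 6.19 at day 0, 6.05, 8.52 and 8.42 at day 7 and 5.39, 7.70 and 5.25 at day 21 (0.98 ± 0.16, adjusted p = 0.000508). It was highest in the embryoid bodies and ended above its day 0 level within each array set. All 22 measured microRNA genes within it had positive differences, with a median of 0.73, and 7 passed, against 27 higher and 5 lower of the 456 microRNA genes elsewhere (5.92% and 1.10%). Mir669k read 4.30, 4.30 and 5.48 at day 0, 5.90, 8.74 and 8.51 at day 7 and 5.59, 7.68 and 4.82 at day 21 (1.34 ± 0.27), and Mir467e, Mir669a-3 and Mir466h were higher by 1.41 ± 0.21, 1.34 ± 0.24 and 1.05 ± 0.15. From day 0 to day 7 17 of the 22 passed. These genes are near-identical copies of few families, so the values of single members are uncertain and the 22 are not independent.

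**Figure D4:**
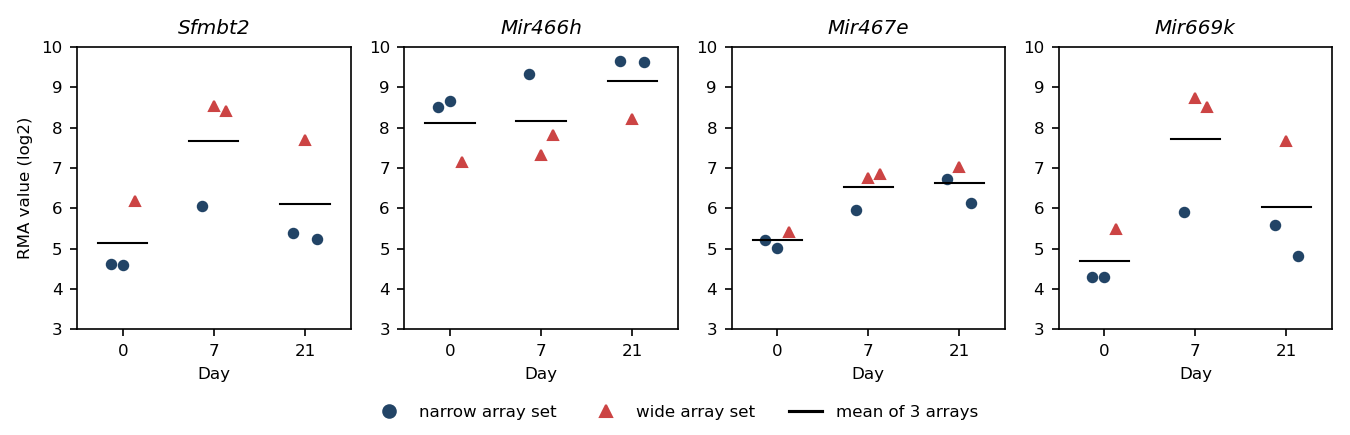
RMA values in log2 (vertical axis) of Sfmbt2 and of 3 microRNA genes within it on the 9 Pax7+/+ arrays by day (horizontal axis), circles for narrow and triangles for wide arrays, with a bar at the mean of 3 arrays. Sfmbt2 and Mir669k are highest at day 7, while Mir466h on the narrow arrays is 8.52 and 8.65 at day 0, 9.32 at day 7 and 9.65 and 9.63 at day 21.

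The embryoid bodies at day 7 divide the net change in time. Of the 272 genes at least 2-fold higher at day 21, 137 had already passed in the same direction from day 0 to day 7, where 2.54% of all genes passed upward, and 83 passed from day 7 to day 21 (1.37% of all genes), with 30 in both steps. Of the 630 at least 2-fold lower, 293 passed in the first step (3.14% of all genes) and 348 in the second (4.48%), with 127 in both. The 2 steps share the day 7 arrays, and each shares arrays with the net comparison, so these counts describe the course and are no further test. In the Pax7-/- cells, whose arrays are separate, 148 of the 272 and 311 of the 630 passed in the same direction (4.92% and 4.04% of all genes, and 8.97% in both directions), with medians of 0.92 and -0.66 against 1.39 and -1.32 in Pax7+/+. The members were picked by their Pax7+/+ values, which by itself makes those medians the larger ones. The difference between the genotypes' changes passed for 412 genes (1.86%), 79 positive (0.356%) and 333 negative (1.5%). Among the 272 and the 630 it passed for 44 and 145. That difference contains the same Pax7+/+ change by which the 272 and the 630 were picked. The picking by itself raises these 2 counts, so they are no further test.

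The array sets limit how the sizes can be read. Day 21 minus day 0 had the same sign in both sets for 66.3% of all genes and for 99.7% of the genes that passed, and over all genes its SD was 0.42 in the narrow and 0.73 in the wide set. Of the genes that passed, 98.5% had no overlap between the days within either set, against 37.7% of all genes. The genes that passed were picked by a fit to these same arrays, which by itself raises both shares. The shares are therefore no further test. Among the genes at least 2-fold changed the median absolute difference was 1.27 in the narrow and 1.64 in the wide set.

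**Figure D5:**
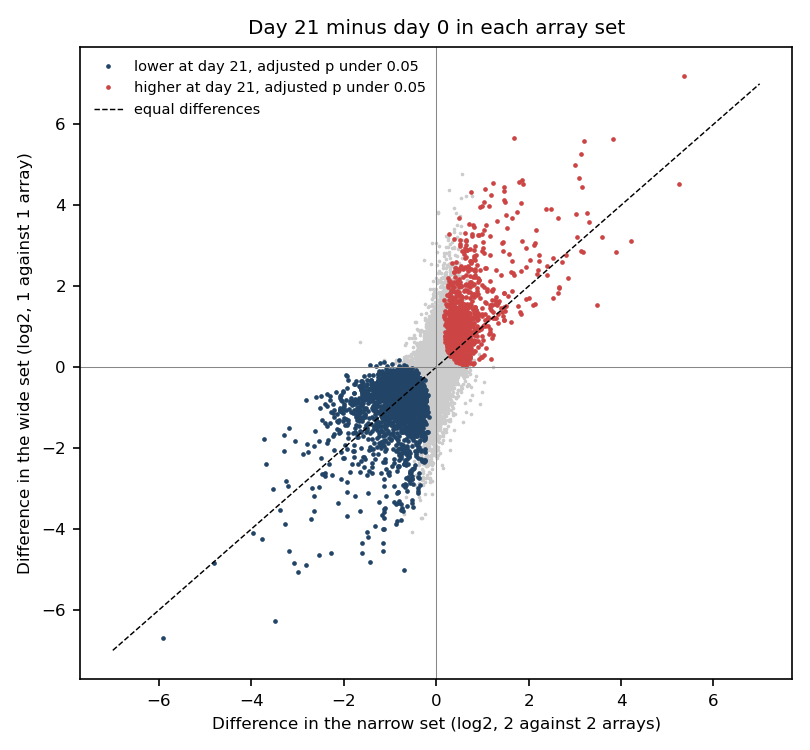
Each point is a gene, with day 21 minus day 0 in log2 on the narrow arrays (horizontal axis, 2 against 2 arrays) and on the wide arrays (vertical axis, 1 against 1), red and blue for genes higher and lower at an adjusted p under 0.05, grey for the rest, and a dashed line where both differences are equal. Points that passed lie in the quadrants of equal sign for 99.7% of genes, a share raised by their being picked on these same arrays. Afp, for example, stands at 1.68 and 5.67.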

How the data were processed

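The deposited table holds log2 values per probe set, which the authors made with RMA, per the submitters' processing notes, which also name Partek; versions and whether all arrays were summarised together are not given in the sources used here. The table has 41345 probe sets: 23521 name a single gene, 1814 name several and 16010 name none. Each of 22180 genes was represented by its brightest probe set, by the mean of the 18 arrays (1082 genes had a choice), and no filter on signal was applied. Arrays were called wide above an SD of 1.6 log2 (8 arrays) and narrow otherwise (10).

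limma 3.58.1 in R 4.3.3 fitted 6 group means and the array set to the 18 arrays (lmFit, contrasts, eBayes; 11 residual degrees of freedom), with Benjamini-Hochberg adjustment over all genes and a threshold of 0.05. SE is that of the fit. The code was tested on simulated data. Fits on the 6 or 9 Pax7+/+ arrays, other normalizations, filters, probe set rules, a replicate block and leaving out each of the 6 arrays were alternatives.

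Members and the 51 gene lists (793 of 879 genes measured) were chosen with earlier results of these data known. Genes named are the 12 largest rises and 12 largest falls that passed, reached 2-fold and did not overlap within either array set (predicted genes, pseudogenes and small RNAs passed over), up to 5 passing members of a list in each direction (or up to 2 with the smallest p where none passed), passing microRNAs of the microRNA lists, and Pou5f1, Nanog, Sox2, Zfp42, Afp, Tubb3, Myod1 and Pax7; the text gives a part of these, and says where a gene falls outside the rule.

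Promoters (250 bases before to 50 after the start, 16990 of the 22180 genes) were searched on both strands for 15 motifs: the sox-oct composite in a long and a short form, which overlap, the HNF1 motif, the sterol response element and the CArG box, by name, and the octamer ATGCAAAT, which can overlap the composite, the GATA motifs AGATAA and GATAAG, which overlap, the ATF6 motif TGACGTGG, the cyclic AMP element TGACGTCA, the TCF motif ACAAAG, the hypoxia core ACGTG, the Esrrb motif TCAAGGTCA, the CCAAT box and the GC box GGGCGGGGC. Figures were drawn with Python and matplotlib.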

Additional observations from a re-analysis of the deposited data

Results flagged for a closer look

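The change from day 0 to day 21 differed between the genotypes for the genes below, by limma's test of the difference of the 2 changes (adjusted p under 0.05; 1.86% of all genes passed it). Values are the Pax7+/+ change minus the Pax7-/- change in log2.

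Of the 16 parietal endoderm and basement membrane genes the difference passed for 6, all with a larger rise in Pax7+/+. The values of these and of other matrix genes that passed were Lama1 3.60, Lamb1 2.32, Lamc1 1.11, Srgn 2.46, Sparc 1.00, Plod2 1.98, Tram2 1.29, Adamts9 1.56, P4ha1 1.6 and P4hb 1.00. Lama1 changed by 5.01 in Pax7+/+ and 1.41 in Pax7-/-. The difference did not pass for Nid1 (0.64, adjusted p = 0.636), Col4a1 (1.15, 0.184), Col4a2 (1.36, 0.0806), Serpinh1 (0.52, 0.217), P4ha2 (1.07, 0.121) and P3h2 (0.86, 0.616). Of the 31 visceral endoderm and liver genes 3 passed; with an epithelial gene and a hypoxia factor the values were Gata6 1.99, Dab2 1.51, Krt18 1.83, Cubn 2.82 and Epas1 1.71. Cubn changed by 1.47 in Pax7+/+, which did not pass without day 0 replicate 3 or day 21 replicate 2, and by -1.35 in Pax7-/- (adjusted p = 0.0652).

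The difference passed for 6 of 21 replication, 8 of 20 mitosis and 3 of 17 nucleolar genes, all with a larger fall in Pax7+/+. Those among the named genes, with a ribosomal protein gene, were Mcm5 -1.41, Mcm7 -1.22, Mcm2 -1.04, Rrm2 -1.58, Kif11 -0.71, Mad2l1 -0.94, Bub1 -0.82, Bub1b -0.99, Dkc1 -1.48, Nop56 -0.99 and Rpl10a -0.75. Rrm2 changed by -1.47 in Pax7+/+ and 0.11 in Pax7-/-. The difference did not pass for Ncl (-1.09, adjusted p = 0.0534), Gnl3 (-0.80, 0.0625), Mcm4 (-1.0, 0.0676) and Nop58 (-0.66, 0.147). Among stem cell and chromatin genes the values were Utf1 -1.73, Sox2 -1.32, Tet1 -1.35, Uhrf1 -0.83, Jarid2 -1.04, Hmga2 -1.58 and Klf4 1.15. Hmga2 changed by -1.0 in Pax7+/+ and 0.58 in Pax7-/-, and Klf4 by -0.15 in Pax7+/+ and -1.30 in Pax7-/-.

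The remaining values were Cth -1.92, Ptgs2 -2.21, Timp1 -1.47, Timp2 -1.23, Vim -0.86, Tagln -1.07, Igf2r 1.62, Mir18 -1.29 and Sfmbt2 1.24. With 3 arrays a group, single arrays were not tested for standing apart.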

How the results depend on the processing

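Counts over all genes past the threshold stayed within 1.5 times the main count with the array set as a random block, on the 9 Pax7+/+ arrays, under the 3 other normalizations, both filters on low values, both probe set rules and both other eBayes settings. Without the array set in the fit 29 genes passed, 15 higher and 14 lower, 27 of them at least 2-fold. On the narrow arrays alone 712 were higher, and on the wide arrays alone 5086 passed, 2276 higher and 2546 at least 2-fold. The fit on the 6 arrays alone, with fewer residual degrees of freedom, gave 1515 genes, 390 higher and 1125 lower, and an adjusted p under 0.01 gave 1854, 470 higher and 1384 lower. When 1 of the 6 arrays was left out, 2198 to 3109 genes passed, 555 to 1088 higher, 1609 to 2055 lower and 745 to 1043 at least 2-fold. The replicate block with the array set gave 3065 genes, 1003 higher and 2062 lower. The residuals of same-numbered arrays correlated at -0.26, 0.32 and 0.30, and not every array correlated best with its own number. Pairs of 1 narrow and 1 wide array correlated at 0.30 to 0.36 whatever their numbers, and pairs of the same set at -0.47 to -0.20. These correlations follow the array sets, so they cannot show whether arrays of the same number belong together. Counts within single lists moved by more, above all after quantile normalization, as given beside them; with the replicate block the BMP and TGF-beta list had 4 higher and 3 lower. Of 149 named genes that passed, 136 passed whichever array was left out. Sign changes were seen for genes that did not pass: Tubb3 (0.096 on narrow arrays, 0.0025 without day 0 replicate 3, 0.028 without day 21 replicate 2), Pax7 (-0.24 on narrow arrays, -0.056 after quantile normalization, -0.028 without day 0 replicate 3, and -0.19 to 0.36 when any 1 array was left out) and Klf4 (0.032 after quantile normalization). The causes were not tested.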

Other observations

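Genes of 2 further families were counted after the values were seen. Of 80 small nucleolar RNA genes, which guide the modification of ribosomal RNA, 21 were lower at day 21 and 3 higher, with a median of -0.39, against 9.64% lower and 4.97% higher over all genes. Of 71 mitochondrial ribosomal protein genes (symbols starting with Mrp) 21 were lower and 0 higher, with a median of -0.29.

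Xist, the RNA that coats the inactive X chromosome, read 5.86, 5.86 and 7.97 log2 at day 0, 4.63, 4.43 and 4.46 at day 7 and 4.35, 3.76 and 4.43 at day 21 in Pax7+/+. The difference of day 21 minus day 0 was -2.39 ± 0.51 (limma, adjusted p = 0.00433). Nhp2, a partner of Dkc1 in the telomerase particle, was lower by -0.72 ± 0.18 but did not pass without day 0 replicate 2 (-0.63, adjusted p = 0.0567) or day 21 replicate 2 (-0.53, adjusted p = 0.0986). Ttr, the carrier of thyroid hormone made by visceral endoderm and liver, was higher by 1.82 ± 0.45 but did not pass without day 0 replicate 3 (1.43, adjusted p = 0.0755) or day 21 replicate 2 (1.28, adjusted p = 0.08).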
